A study of Rattus norvegicus with 36 samples.

Results

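The comparison described here is that of glucocorticoid receptor (GR) binding after corticosterone with that after vehicle in the hippocampus of trained rats. Its members are all regions of the GR list in the deposited table, 5307 of 20029 regions in all; the other 14722 belong to the list of phosphorylated CREB (pCREB). They were compared between 4 trained corticosterone libraries and 4 trained vehicle libraries, 8 of the 36 samples of the series. The animals of every group were male Sprague-Dawley rats, a common outbred laboratory strain, and the labels give no age, dose or time of treatment. In each group named A to D below, a library was made from the chromatin of 4 hippocampi taken from 2 rats, fixed with 1% formaldehyde. The same chromatin was divided between an antibody against GR and an antibody against CREB phosphorylated at serine 133, so the pCREB libraries come from the same pools. Untrained rats given corticosterone or vehicle, again 4 GR libraries each, appear only where the trained response is set beside theirs.

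GR is a nuclear hormone receptor that stays largely in the cytoplasm until a glucocorticoid binds it, after which it moves to the nucleus and binds DNA, at glucocorticoid response elements or through other factors. Corticosterone is the main glucocorticoid of rats, rises with stress, and acts in the hippocampus both through GR and through the mineralocorticoid receptor, which binds the same elements with higher affinity for the hormone. CREB is a factor bound near many promoters that is phosphorylated in response to neuronal activity and has long been studied in memory formation. The study concerned memory strengthened by glucocorticoids; the question here was where in the genome the hormone changed GR signal once the animals had been trained. No annotation of the build of the files (rn6) was used here, so regions are named by position and were not assigned to genes, promoters or motifs.

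The number of reads in GR regions differed between the groups. The trained vehicle libraries A to D held 109094, 95151, 113574 and 104729 reads in GR regions (mean 105637 ± 7868, SD, n = 4). The trained corticosterone libraries held 117868, 149254, 134144 and 173176 reads (143610 ± 23511, SD, n = 4). All corticosterone libraries thus held more reads in GR regions than all vehicle libraries (exact two-sided permutation test of log2 totals, p = 0.0286, the smallest p that 4 against 4 can give). These totals count reads in listed regions only, so they do not separate sequencing depth from the share of reads in regions. Values below are therefore given as reads and as CPM, edgeR's counts scaled to a common library size, here relative to the reads of the tested GR regions after scaling by trimmed means (TMM). A single read was worth 8.60 to 11.6 CPM in the vehicle libraries and 5.98 to 9.11 CPM in the corticosterone libraries. The vehicle libraries carry lane number 7 and the corticosterone libraries lane number 8 in their labels, so lane and treatment cannot be told apart.

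GR signal was higher after corticosterone at a small group of regions and lower at none that passed the test. Of 4495 regions with enough reads to be tested, 58 (1.29%) had an adjusted p under 0.05 in edgeR's quasi-likelihood test, and all 58 were higher after corticosterone. The smallest rise was 2.32-fold, the median 3.54-fold (quartiles 2.85 and 4.30) and the largest 19.0-fold. More than 3-fold rises were seen at 38 of the 58 regions and more than 4-fold rises at 23. Across all tested regions the median fold change was -0.0014 on the log2 scale, and 127 regions were more than 2-fold higher. At 56 of the 58 regions the lowest corticosterone library lay above the highest vehicle library, a separation seen at 155 of all tested regions (3.45%). At the other 2, chr16:48053796-48054088 and chr13:71606937-71607641, the lowest corticosterone library, C, lay below vehicle B.

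In the lower direction, edgeR called 0 regions (0%), 142 (3.16%) had an unadjusted p under 0.05, and 110 (2.45%) had all vehicle libraries above all corticosterone libraries. The corresponding counts in the higher direction were 276 (6.14%) and 155. DESeq2 called 50 regions higher (1.11%), 49 of them among edgeR's 58, and 1 region lower (0.0222%). The count of calls depended on single libraries. It was 143 (141 higher, 2 lower) without trained vehicle B, 33, 34 and 38 without trained vehicle A, C and D, and 31 and 30 without trained corticosterone B and D. When all 16 GR libraries shared a model it was 6. Every one of the 58 regions kept a positive fold change in all of these fits, and 24 were called in each of the 8 fits that left out 1 library.

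The region with the highest fold was chr10:59884799-59885334, a 535 bp region. It held 5, 3, 3 and 4 reads in trained vehicle A to D and 75, 107, 109 and 106 reads in trained corticosterone A to D. The region was close to empty in every vehicle library and among the stronger ones in every corticosterone library. Mean signal was 38.0 ± 9.85 CPM with vehicle and 736 ± 94.2 CPM with corticosterone (SD, n = 4 each), a 19.0-fold rise (95% interval 12.4 to 29.3, adjusted p 8.23e-10 by edgeR). Per kb of width, it was in place 4494 of 4495 tested regions in the vehicle group and in place 73 in the corticosterone group.

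A further 5 regions were called in every fit over the whole list, those leaving out a library and the model of all 16 libraries included. The second highest fold was at chr17:46747792-46748078, with 2, 0, 2 and 0 reads after vehicle and 17, 17, 20 and 16 after corticosterone. Its rise was 11.96-fold, but with so few vehicle reads the 95% interval reached from 4.92 to 29.1 (adjusted p 0.00168). At chr10:16942351-16942910 the vehicle libraries held 3, 6, 4 and 3 reads and the corticosterone libraries 34, 43, 43 and 39. This was a 7.21-fold rise, from 41.2 ± 18.3 to 298 ± 43.9 CPM (SD, n = 4 each), and the groups were far apart in every library. At chr15:43782823-43783162 the reads were 3, 3, 1 and 4 against 17, 25, 26 and 35, a 6.60-fold rise. At chr17:5971448-5971815 they were 5, 6, 1 and 9 against 28, 49, 44 and 57, a 6.03-fold rise. These regions shared a pattern of single-digit reads in all vehicle libraries. The last of the group, chr19:57346524-57346864, held 6, 6, 3 and 4 reads against 21, 29, 27 and 31, rose 4.11-fold from 48.8 ± 17.8 to 199 ± 13.4 CPM (SD, n = 4 each), and was alone among the 6 in overlapping a pCREB region.

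**Figure D1:**
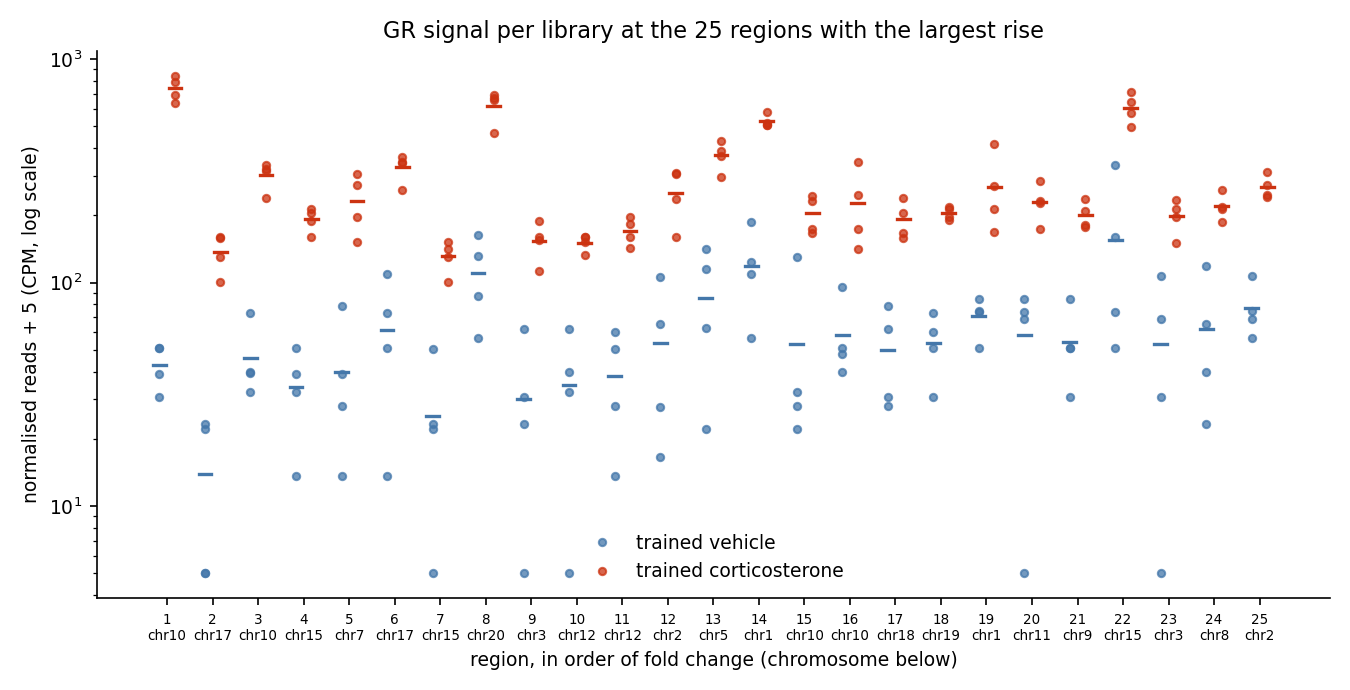
Normalized GR signal (CPM, log axis) of the 25 named regions with the highest folds in each of the 4 trained vehicle and 4 trained corticosterone libraries. Each point is 1 library and regions are ordered by fold; every corticosterone point lies above every vehicle point of its region, which the naming rule required.

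Some of the called regions held more reads with vehicle. At chr20:7998838-7999373 the vehicle libraries held 9, 14, 6 and 11 reads and the corticosterone libraries 75, 90, 60 and 109. Signal there rose 5.94-fold (edgeR adjusted p 1.04e-05), from 105 ± 47.6 to 615 ± 103 CPM (SD, n = 4 each), and the region was in place 101 per kb in the corticosterone group. At chr1:78999395-78999862 the reads were 13, 16, 6 and 9 against 55, 70, 65 and 96, a 4.64-fold rise from 114 ± 53.6 to 523 ± 34.8 CPM (SD, n = 4 each). The vehicle libraries differed among themselves by more than the corticosterone libraries did at this region. At chr15:58884552-58885070 they differed more still, with 17, 29, 8 and 4 reads against 54, 96, 83 and 95 after corticosterone. Its rise of 4.04-fold (adjusted p 0.0113 by edgeR) was no longer called when trained vehicle A, trained vehicle C or any corticosterone library but A was left out (adjusted p 0.0508 to 0.0958).

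The other named regions rose from low vehicle levels. On chromosome 7, chr7:59260978-59261383 held 8, 3, 1 and 2 reads against 33, 20, 25 and 45 and rose 6.32-fold. On chromosome 2, chr2:124111477-124112104 held 11, 2, 7 and 1 reads against 17, 41, 30 and 51, a 4.77-fold rise in which both groups spread widely. On chromosome 5, chr5:125767789-125768261 held 12, 12, 2 and 5 reads against 40, 52, 38 and 71, a 4.65-fold rise. Both named regions of chromosome 12 were weaker. At chr12:40898549-40898905 the rise was 4.93-fold, from 33.0 ± 21.0 to 165 ± 23.8 CPM (SD, n = 4 each). At chr12:24446543-24446837 it was 5.13-fold, from 29.7 ± 23.4 to 146 ± 13.0 CPM, a call lost without trained corticosterone B or D (adjusted p 0.0541 and 0.0646 by edgeR).

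Of the remaining 11 named regions, chr15:37409719-37409969 and chr3:173846254-173846566 had the highest folds, 5.96 and 5.76. The first was not called without trained vehicle A or without corticosterone A, B or C (adjusted p 0.0527 to 0.0608 by edgeR), and the second not without trained corticosterone B (0.0541). At chr10:75966862-75967158 the reads were 3, 11, 2 and 2 against 25, 22, 22 and 40. Its 4.32-fold rise was lost as a call without trained vehicle A or trained corticosterone D (adjusted p 0.0597 and 0.0508 by edgeR). Also on chromosome 10, chr10:64458325-64458655 rose 4.25-fold, and on chromosome 1 chr1:73760445-73760846 rose 4.07-fold; in both, corticosterone D was the highest library, with 57 and 69 reads. Folds of 4.12, 4.05 and 4.05 were measured at chr18:51587732-51588066, chr11:47537589-47538053 and chr9:19527597-19527934. The list closed with chr3:2251775-2252102 at 4.02-fold, chr8:51214436-51214880 at 3.84-fold and chr2:187404631-187404971 at 3.72-fold. The call at chr3:2251775-2252102 was lost in 5 of the fits that left out a library, those leaving out trained vehicle A, trained vehicle C or any corticosterone library but A (edgeR adjusted p 0.0509 to 0.0718).

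Near the threshold, chr16:71597173-71597621 (2.32-fold) and chr9:27468940-27469344 (2.72-fold) were just inside, each with an adjusted p of 0.0498 by edgeR. Both calls were lost in DESeq2 (0.102 and 0.110) and in 7 of the 8 fits that left out a library, that without trained vehicle B being the exception. Just outside were chr6:29375665-29376020, 2.53-fold higher with an adjusted p of 0.0575, and chr3:143216334-143216669, 3.63-fold higher with an adjusted p of 0.0598. The size of the change thus did not separate these regions.

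The regions with the smallest p in the lower direction did not pass. At chr4:60469001-60469276 the vehicle libraries held 12, 9, 13 and 13 reads and the corticosterone libraries 4, 7, 5 and 3. The groups did not overlap, and mean signal was 118 ± 21.5 and 36.1 ± 13.8 CPM (SD, n = 4 each). The log2 fold change of -1.71 (SE 0.46) had an edgeR adjusted p of 0.0688. It passed in DESeq2 (0.0474), without robust dispersions (0.0406), without the read filter (0.0359) and without trained vehicle B (0.0447). At chr2:182266895-182267254 the reads were 16, 10, 20 and 15 against 7, 11, 9 and 3, with a log2 fold change of -1.42 (SE 0.38) and an edgeR adjusted p of 0.0739, or 0.0263 without trained vehicle B. At chrUn.583:40033-40437, on an unplaced scaffold, the reads were 18, 15, 19 and 11 against 11, 8, 7 and 12, and the change was -1.15 (SE 0.32, log2) with an edgeR adjusted p of 0.0988. All 3 regions overlapped a pCREB region, as did 84.4% of all tested regions.

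The called regions moved from the bottom to the upper part of the range of GR signal. Mean vehicle signal at the 58 regions was 8.87 to 214 CPM with a median of 60.3 CPM, against a median of 149 CPM over all tested regions. After corticosterone it was 126 to 736 CPM with a median of 226 CPM, against 149 CPM over all tested regions. Levels per kb of width were then ranked among the tested regions. In the vehicle group 42 of the 58 regions were in the lowest 10% and 34 in the lowest 2%, whereas in the corticosterone group 53 were in the highest 25%. Of the 66 tested regions that were both in the lowest 10% with vehicle and in the highest 25% with corticosterone, 37 were called (56.1%). Of the 2248 above the vehicle median, 5 were called (0.222%). The test itself uses both groups' reads, so these ranks describe the called regions and are not a separate test. The read filter asked for enough reads in as many libraries as a group holds. A region with few reads in all vehicle libraries was therefore tested only where the corticosterone libraries held enough. All 89 tested regions in the lowest 2% with vehicle had a log2 fold change above 0.

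**Figure D2:**
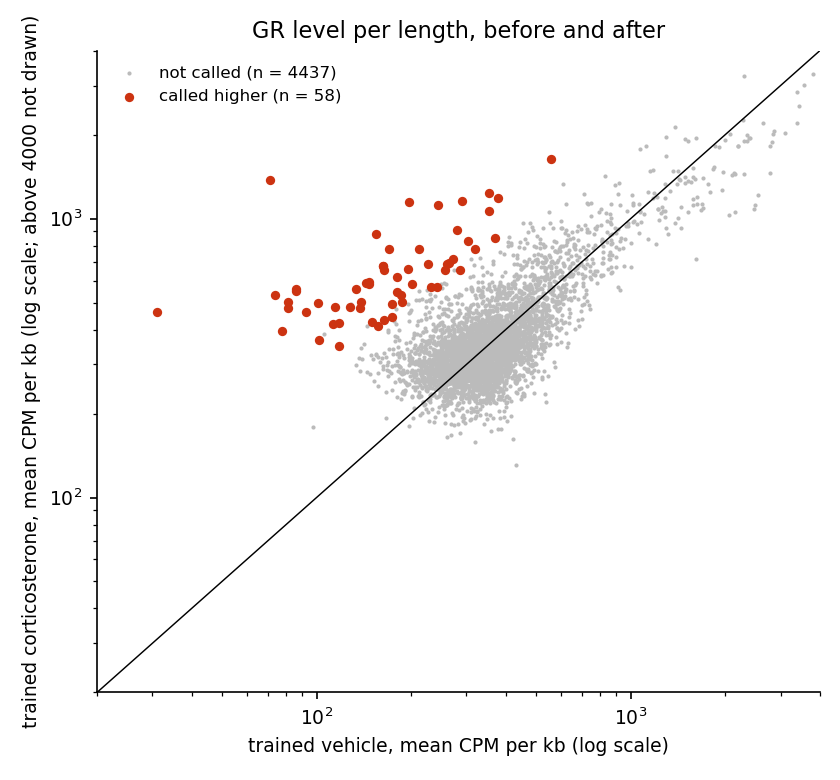
GR level per length (mean CPM per kb, log axes) in trained vehicle and trained corticosterone libraries, 1 point per tested region, with the 58 called regions marked. Regions with the highest levels lie beyond the axes and are not drawn. The called regions lie above the line of equal level, most of them at the low end of the vehicle axis and in the upper part of the corticosterone axis.

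Few reads stood behind each vehicle value. Over the 4 vehicle libraries together a called region held 4 to 85 reads (median 23.5), and over the 4 corticosterone libraries 67 to 397 reads (median 122.5). The median standard error of the log2 fold change was 0.36 at called regions and 0.31 over all tested regions. Called regions were also found at high mean levels. In 4 classes of equal size by mean CPM, from lowest to highest, 15, 15, 9 and 19 regions were called. In 4 such classes by width, from narrowest to widest, the counts were 20, 18, 13 and 7, and the called regions had a median width of 362 bp against 422 bp over all tested regions.

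The fraction of each library that fell into these 58 regions shows the same change library by library. Without mitochondrial regions, they took 0.536%, 0.676%, 0.348% and 0.299% of the reads of trained vehicle A to D. They took 1.67%, 1.62%, 1.62% and 1.79% of the reads of trained corticosterone A to D, a much narrower spread than with vehicle. The regions were chosen on these libraries, so these shares are a description.

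**Figure D3:**
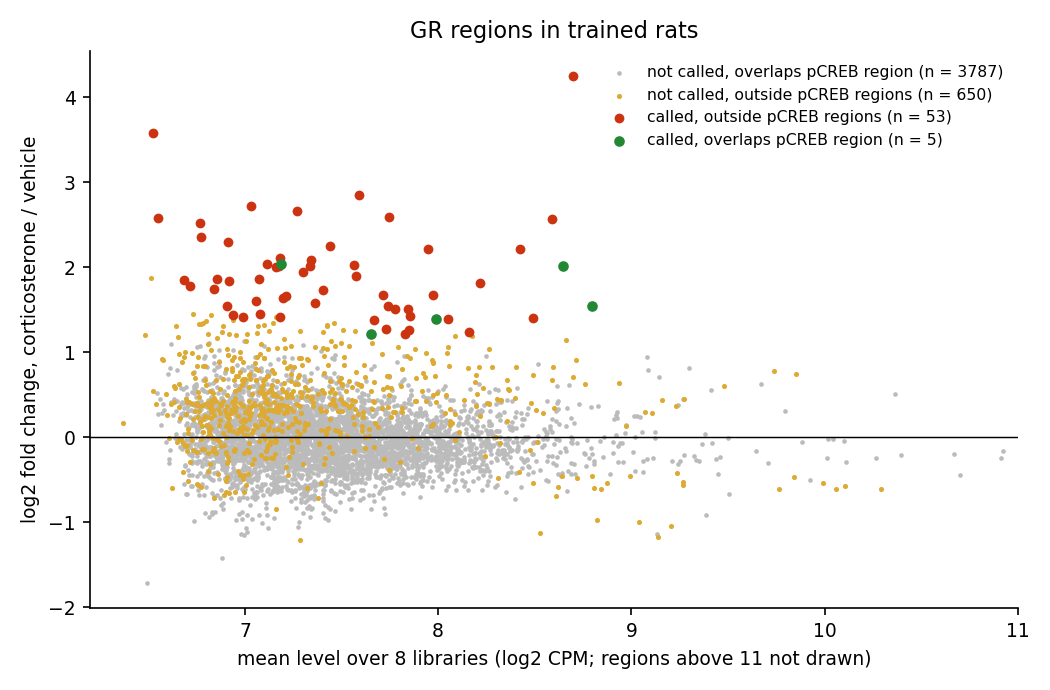
Log2 fold change of GR signal, corticosterone over vehicle in trained rats, against mean log2 CPM, 1 point per tested region. Regions with the highest mean log2 CPM lie beyond the axis and are not drawn. The 58 called regions, marked, are all on the higher side and lie at low and at high mean signal.

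The authors' peak calls, which accompany each region in the deposited table, followed the counts. In the 58 regions, trained vehicle A and B had peaks called in 13 and 11 regions and trained vehicle C and D in 1 each. Trained corticosterone A to D had peaks called in 57, 58, 56 and 58. No vehicle library had a call at 40 of the 58 regions, and all 4 corticosterone libraries had one at 55. The pattern of 0 vehicle calls with 4 corticosterone calls held at 37 of the 58 regions (63.8%) and at 165 of all tested regions (3.67%). Libraries also differed in calls overall: regions with a call numbered 3002, 1991, 2717 and 1966 in vehicle A to D and 3437, 4849, 3659 and 4657 in corticosterone A to D.

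Each region in the deposited list had a peak called in 3 or more libraries of 1 condition, so the list itself holds part of the contrast. Of the tested regions, 1889 were listed only through trained corticosterone, and their median log2 fold change was 0.12, with 19 called (1.01%). Another 299 were listed only through trained vehicle, with a median of -0.44 and 0 called. The 1727 regions listed through an untrained condition do not owe their place to the trained libraries, and 39 of them were called. Most were listed through the hormone all the same: 1676 had calls in 3 or more untrained corticosterone libraries and 310 in as many untrained vehicle libraries. This set is therefore not free of the treatment contrast. The median log2 fold change of all 1727 was 0.01, and the median rise of the 39 called was 3.19-fold. At an unadjusted p under 0.05, 164 of these were higher and 39 lower. A test restricted to these 1727 regions called 35, all higher and all among the 58.

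Called regions rarely overlapped the pCREB list. Of the 58, 5 shared 1 bp or more with a pCREB region (8.62%), against 3792 of the 4495 tested GR regions (84.4%). Seen from the other side, 53 of 703 tested GR regions outside the pCREB list were called (7.54%), and 5 of 3792 inside it (0.132%). Counting an overlap only when it covered at least 50% of the GR region gave 8.62% and 84.2%.

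The difference between both classes extended beyond the calls. Outside the pCREB list the median log2 fold change was 0.39 and 80.1% of regions were above 0, and within it the median was -0.05 with 44.2% above 0. At an unadjusted p under 0.05, 183 regions outside were higher and 2 lower, while among overlapping regions 93 were higher and 140 lower. More than 2-fold rises were found at 112 regions outside and at 15 overlapping ones. The median stayed between 0.37 and 0.43 outside and between -0.07 and -0.003 for overlapping regions under the scalings tried. The share of overlapping regions above 0 was 41.0% to 49.6% under them, so the size of that small negative median depends on the scaling. Each scaling was computed from reads in GR regions, most of which overlapped the pCREB list. A change common to most GR regions would thus be scaled away, and both medians are relative to the bulk of regions.

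**Figure D4:**
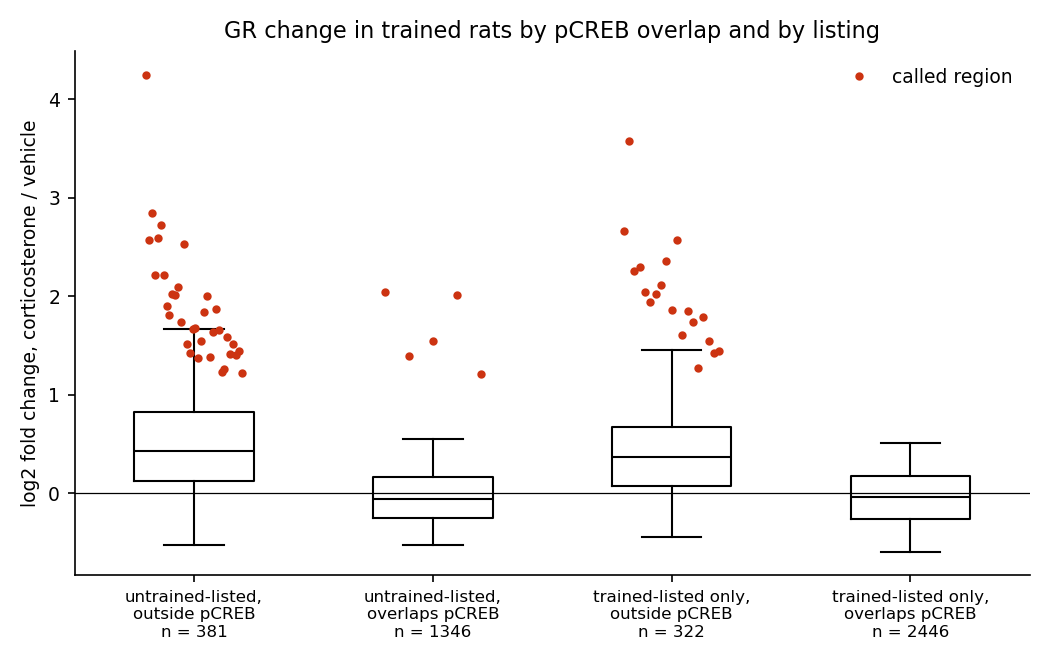
Distribution of the log2 fold change of GR signal (corticosterone over vehicle, trained rats) for tested GR regions outside the pCREB list and for those that overlap it. Regions outside the list are shifted to higher values. The median is 0.39 over all 703 regions outside it and -0.05 over all 3792 that overlap it.

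The gap was measured again within each route to the list. Among regions listed through an untrained condition, 34 of 381 outside the pCREB list were called (8.92%, median log2 fold change 0.42) and 5 of 1346 inside it (0.371%, median -0.06). Among those listed only through trained libraries the counts were 19 of 322 (5.90%, median 0.36) and 0 of 2446 (median -0.04). It was also measured among regions with a low starting level. Of the regions in the lowest 10% of vehicle signal per kb, 41 of 163 outside the list were called (25.2%, median 2.01-fold) and 1 of 286 inside it (0.350%, median 1.33-fold). Vehicle signal is part of the fold change, so choosing regions low in it favours rises. In this set 98.8% of regions outside the list and 94.8% of those inside it were above 0, so these shares are a description. Regions outside the list were narrower, with a median width of 340 bp against 445 bp, and held 6.62% to 13.2% of the reads of vehicle libraries and 12.1% to 16.02% of those of corticosterone libraries. No pCREB reads were counted at GR regions outside that list, so an absent overlap is no measure of pCREB binding there.

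At the 5 called regions that overlapped the pCREB list, the pCREB libraries of the same pools could be read. GR rose 4.11-fold at chr19:57346524-57346864, 4.04-fold at chr15:58884552-58885070, 2.93-fold at chr6:27802105-27802489, 2.63-fold at chr11:31424285-31424773 and 2.32-fold at chr16:71597173-71597621. The pCREB counts at the chromosome 19 and chromosome 6 regions were too low to test: the former held 6, 2, 2 and 3 reads with vehicle and 0, 6, 8 and 7 with corticosterone. At chr15:58884552-58885070 pCREB signal was 27.0 ± 9.56 and 39.6 ± 6.81 CPM (SD, n = 4 each), a log2 difference of 0.56 with a 95% interval of -0.11 to 1.23 (adjusted p 0.926 by edgeR). At chr11:31424285-31424773 the difference was 0.42 (-0.33 to 1.17), and at chr16:71597173-71597621 it was 0.44 (-0.31 to 1.2). None of the 3 passed in edgeR or DESeq2, and 0 had an unadjusted p under 0.05; over all pCREB regions tested, 286 were higher at that unadjusted level (2.06%). The intervals include both no change and a rise of about the size of the smaller GR rises.

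By distance, the called regions lay at a median of 37286 bp from the nearest pCREB region, the overlapping ones counted as 0 bp. Among tested regions outside the pCREB list, 1 of 32 was called within 1 kb of a pCREB region (3.12%), 11 of 121 between 1 and 10 kb (9.09%), 31 of 361 between 10 and 100 kb (8.59%) and 9 of 187 farther away (4.81%). The share within 1 kb rests on few regions.

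Called regions were spread over the genome. Each of chromosomes 1 to 20 held at least 1, while chromosome X, with 20 tested regions, held 0. Chromosome 2 had the most, 6 of 301 tested regions (1.99%), followed by chromosome 17 with 5 of 154 (3.25%). Chromosome 1 had 4 of 466 (0.858%). Called regions close together were few: 6 of the 58 had another called region within 1 Mb (10.3%), and 306 of all 4495 tested regions had a called region other than themselves within that distance (6.81%).

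These 6 regions formed 3 pairs. On chromosome 13, chr13:71575065-71575656 and chr13:71606937-71607641 lay 31.3 kb apart and rose 2.60-fold and 2.65-fold. On chromosome 17, chr17:5921215-5921492 and chr17:5971448-5971815 lay 49956 bp apart and rose 3.15-fold and 6.03-fold. On chromosome 2, chr2:31133251-31133561 and chr2:31868500-31868938 lay 735 kb apart and rose 3.62-fold and 2.32-fold. Tested GR regions near a called one that were not called themselves were then read, beside 49.8% above 0 and a median of -0.001 over all tested regions. Within 10 kb there were 6, all above 0 (median log2 fold change 0.38), of which 4 overlapped a pCREB region. Within 100 kb there were 45, of which 57.8% were above 0 (median 0.26) and 34 overlapped a pCREB region, and within 1000 kb there were 300, of which 47.0% were above 0 (median -0.03).

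The 8 untrained GR libraries were not used to choose these regions, and 51 of the 58 had enough reads to be tested there. All 51 were higher after corticosterone in untrained rats as well, by between 1.57-fold and 17.1-fold (median 3.08-fold), where 52.8% of the 4063 regions tested in untrained rats were above 0. More than 2-fold rises were measured at 44, and 37 had an unadjusted p under 0.05 in the higher direction (5.29% of all regions tested in untrained rats), against 0 in the lower direction (1.4%). All corticosterone libraries lay above all vehicle libraries at 13 of the 51, and at 1.80% of all regions tested in untrained rats. After adjustment edgeR called 0 of the 51, and 0 of all 4063, while DESeq2 called 11 of the 51. Without untrained vehicle B edgeR called 21 of 56, and without untrained corticosterone C it called 5 of 54. Untrained libraries spread more. Without mitochondrial regions, the 58 regions took 0.434%, 1.05%, 0.243% and 0.713% of the reads of untrained vehicle A to D. They took 2.41%, 1.51%, 1.13% and 2.63% of those of untrained corticosterone A to D.

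Some of the called regions were listed through untrained libraries. Of the 58, 39 had calls in at least 3 untrained corticosterone libraries and 0 in as many untrained vehicle libraries. The 19 others were listed only through trained corticosterone. Of these, 13 could be tested in untrained rats, and all 13 were higher there (median 2.45-fold, 7 with an unadjusted p under 0.05 by edgeR). The median of all 19 in trained rats was 3.84-fold. These medians cover different sets of regions. The 19 were also listed and called through trained corticosterone libraries, which favours a higher trained value, so the medians are a description. The 7 called regions that could not be tested in untrained rats held 2 to 18 reads over the 4 untrained vehicle libraries and 52 to 97 over the 4 untrained corticosterone libraries, with more reads after corticosterone at all 7.

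**Figure D5:**
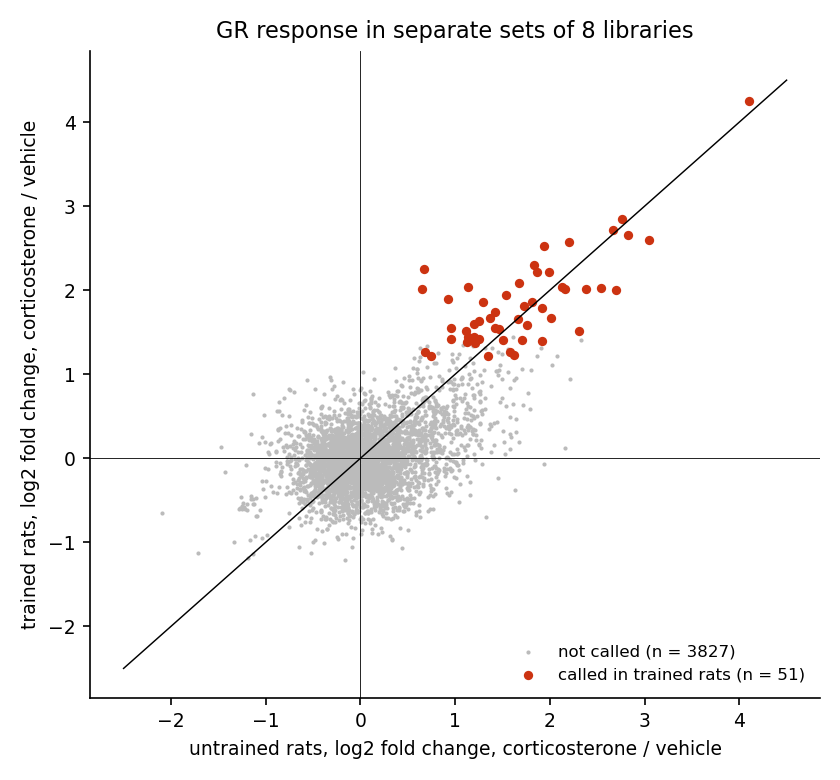
Log2 fold change of GR signal after corticosterone in trained rats and in untrained rats, 1 point per region. The 51 called regions tested in both are all above 0 on both axes. They were chosen on the trained axis, so its values are a description.

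Values in trained and untrained rats were close at some regions and apart at others. At chr10:59884799-59885334 the folds were 19.0 and 17.1, and at chr10:16942351-16942910 they were 7.21 and 6.79. At chr17:5971448-5971815 the untrained fold was the higher of both, 8.25 against 6.03. At chr2:124111477-124112104 they were 4.77 in trained and 1.59 in untrained rats, and at chr2:187404631-187404971 they were 3.72 and 1.90. The test of the difference between both training states called 0 of the 58 regions and 0 of 4968 regions tested in edgeR, and 0 of the 58 in DESeq2. At an unadjusted p under 0.05 it found 1 of the 58, chr2:124111477-124112104 (log2 difference 1.59, p 0.0448 by edgeR), where 184 of all tested regions (3.70%) reached that level. The median difference over the 58 was 0.15 on the log2 scale, with 37 above 0; since the regions were chosen for their trained rise, this difference is a description.

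The filter on low reads left out 812 GR regions, of which 596 were listed through trained corticosterone and 55 through trained vehicle. They held a median of 72 reads over the 8 libraries, against 140 for tested regions, and 461 of them overlapped a pCREB region. Without the filter, 59 regions were called, 58 higher and 1 lower, and 52 of these were among the 58 described above.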

How the data were processed

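The authors deposited raw read counts per region and library, without normalization, per the file headers and the values. The submitters' processing notes name the build rn6 and the tools HTSeq 0.6.1-1, bedtools 2.26.0, MACS2 2.1.1.20160309 and BWA 0.7.10; their settings are not stated in the sources used here. Mitochondrial regions took 7.66% to 17.3% of the reads of the 8 libraries. Libraries of a group were no duplicates (lowest chi-square per degree of freedom 1.78 over 12 pairs).

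The main test was edgeR's (version 4.0.16, R 4.3.3) on the 8 libraries alone (filterByExpr by group, TMM, robust quasi-likelihood fit, Benjamini-Hochberg adjustment over all tested regions, called at an adjusted p under 0.05). The test was checked on simulated counts. The standard error is the log2 fold change over the square root of F. Untrained libraries were fitted separately, and the interaction in a model of 16 libraries. DESeq2 1.42.0 was an alternative. Overlaps used GenomicRanges 1.54.1. Named regions are the 25 largest rises called with groups that did not overlap and, since fewer than 3 falls passed, the 3 falls with the smallest p, plus 2 regions on either side of the threshold; regions named with overlaps, pairs or overlapping groups were chosen after their values were seen. Members and lists were chosen with earlier results of these data known. Gene lists, motifs and distances to genes were not run, as no annotation of rn6 was used here. The labels give A to D as separate libraries of a group, and p-values measure the spread between these libraries.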

Additional observations from a re-analysis of the deposited data

Results flagged for a closer look

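At 3 of the named regions 1 library stood apart from the other 3 of its group (gap to the nearest library over the range of the group above 0.829). At chr20:7998838-7999373, trained corticosterone C had 461.8 CPM where the others had 651.3 to 683.1 CPM. At chr10:75966862-75967158, trained vehicle B had 125.1 CPM where the others had 17.2 to 27.45 CPM. At chrUn.583:40033-40437, trained vehicle D had 127 CPM where the others had 163.4 to 170.5 CPM. In all 74 groups were looked at, and chance alone marks about 1 group in 20.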

How the results depend on the processing

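Of the 58 calls, 49 were shared with DESeq2 (51 calls), 56 with scaling by total reads (57), 53 with DESeq2 size factors (53), 57 with TMM factors from pCREB-overlapping regions (58), 52 without mitochondrial regions (52) and 53 under a stricter filter (54). The count was 31 at an adjusted p under 0.01, 71 (68 higher, 3 lower) at 0.1, 46 (45 and 1) without robust dispersions, 6 with all 16 GR libraries in a model, and 35 when regions were limited to those listed through an untrained condition, a setting chosen after seeing the data. Leaving out 1 library gave 30 to 143. With the letter as a replicate block it was 86 (75 higher, 11 lower), among them all 58. The letters were not shown to pair libraries: same-letter correlations of deviations were 0.039 to 0.375, 2 of 4 pairs over 0.1, and not every library correlated best with its own letter. In untrained rats, 0 of the 51 regions became 11 with DESeq2, 7 with total-read scaling, 4 with the replicate block, 11 with all 16 libraries and 0 to 21 without 1 library. The log2 difference in total reads in GR regions, 0.43, was 0.34 to 0.52 without 1 library. Without a vehicle library the p of the permutation test was 0.0571. The interaction and the pCREB test called 0 in every setting run, the replicate block included. No fold change of a named region changed sign in any setting run. Depth limits weak regions: a median region held 12 to 23 reads per library. Distances to genes were not run.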
